A study of Mus musculus with 24 samples.

Results

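F13a1 and 9 genes that are used as markers of alternative macrophage activation (Mrc1, Il4ra, Chil3, Retnla, Tgm2, Clec10a, Folr2, Cd163 and Igf1) were followed across WT and Irg1-/- macrophages. They are 10 of the 22165 genes in the count table, found by gene symbol through the Ensembl identifiers. F13a1 was chosen by its measured values in these same libraries, so its levels and differences are given as a description, with no test, and the 9 others show what came with it. 9 of the 10 genes passed the filter on low counts. Retnla had 0 reads in all 24 libraries and was not tested, which leaves 8 tested genes beside F13a1.

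F13a1 encodes the catalytic A subunit of coagulation factor XIII, a transglutaminase that cross-links fibrin and that monocytes and macrophages also make. IL-4 and IL-13 bind receptors that contain the chain encoded by Il4ra and activate the transcription factor STAT6, which drives the alternative, or M2, program of macrophages. Genes used as markers of alternative activation, not all of them read as targets of STAT6 here, include lectin and scavenger receptors (Mrc1, Clec10a, Cd163) and a folate receptor (Folr2). Secreted proteins (Chil3, Retnla, Igf1) and the transglutaminase Tgm2 are used as well. LPS acts through TLR4 and drives an inflammatory program.

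The cells were bone marrow-derived macrophages (BMDMs), grown for 7 days in M-CSF at 20 ng/mL from the marrow of mice aged 8 to 20 weeks. WT cells carried an intact Irg1 gene (Acod1, the enzyme that makes itaconate) and Irg1-/- cells lacked it, both on the C57BL/6N background, with WT mice from a commercial supplier. Each genotype was left without LPS (Unstim.), given LPS at 100 ng/mL for 24 h and harvested (LPS 24h), given LPS for 24 h, rested for 1 h and given LPS again for 3 h (LPS 24h->LPS 3h, tolerized), or taken through the same steps without the earlier dose (LPS 3h). Every one of the 8 groups held 3 cultures, which the study calls independent, and no IL-4 or IL-13 was added to any of them. The number of mice behind the cultures is not given in the sources used here.

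The libraries held between 3927378 and 20430359 reads on genes, with a median of 11539055. Levels are normalized CPM, read counts scaled to library size, and since the method reads the 3' end of each transcript they are compared between groups and never between genes. Acod1, the targeted gene, was at 3794 CPM or more in every WT library under LPS and at 26.4 CPM or less in every Irg1-/- one. All 8 macrophage markers listed were read in all 24 libraries, with a summed level between 3319 and 9833 CPM. The lowest of these sums belonged to the third WT culture at LPS 24h, whose other 2 cultures gave 8096 and 6082 CPM, and the genotype differences at LPS 24h are also given without it. Libraries carry a prefix, MB_1 to MB_4, before their barcode, and barcoded cDNAs were pooled before amplification; those with the same prefix are called a pool here. All 6 Unstim. libraries were in pool 4, whereas the LPS libraries of the 2 genotypes were split unequally over the pools. Pool and treatment cannot be told apart in the Irg1-/- comparisons with Unstim., and for the members other than Clec10a, whose reads were few, values within the pools that held LPS libraries of both genotypes stand beside the genotype differences.

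Upstream sequence was at hand in the RefSeq promoter table (GRCm38.p6) for 8 of the 10 genes, and 250 bases before the start were searched for 4 motifs. These were the STAT6-type motif TTCNNNNGAA, the related GAS-type motif TTCNNNGAA, the AP-1 motif TGANTCA, all of which read alike on both strands, and the NF-kB motif by name on both strands. The STAT6-type letters were in 5.85% of the 32851 windows of that length in the table, and among the members' leading windows they were found in Retnla alone. GAS-type letters (7.02% of windows) were found in Chil3, AP-1 letters (6.75%) in Igf1, and NF-kB letters (3.90%) in none of the 8. The windows of 3 genes are shown: F13a1, the gene with the difference between genotypes, and Chil3 and Retnla, secreted markers that hold a STAT-type match, in capitals; a match is a description of letters only.

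F13a1 (GRCm38, chr13:37050245-37050494, minus strand, no match to the 4 motifs): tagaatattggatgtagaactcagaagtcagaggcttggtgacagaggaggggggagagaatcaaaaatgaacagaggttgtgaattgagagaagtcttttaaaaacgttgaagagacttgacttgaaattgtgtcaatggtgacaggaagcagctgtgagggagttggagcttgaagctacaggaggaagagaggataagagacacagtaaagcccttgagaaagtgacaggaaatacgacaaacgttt
Chil3 (GRCm38, chr3:106167565-106167814, minus strand, capitals mark the GAS-type match that begins 172 bases before the start): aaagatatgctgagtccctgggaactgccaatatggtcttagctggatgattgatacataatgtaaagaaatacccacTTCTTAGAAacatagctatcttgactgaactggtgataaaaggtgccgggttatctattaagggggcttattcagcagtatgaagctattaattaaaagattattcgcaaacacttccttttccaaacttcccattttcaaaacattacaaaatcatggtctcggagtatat
Retnla (GRCm38, chr16:48842359-48842550, plus strand, cut where the annotated gene begins, capitals mark the STAT6-type match that begins 145 bases before the RefSeq start): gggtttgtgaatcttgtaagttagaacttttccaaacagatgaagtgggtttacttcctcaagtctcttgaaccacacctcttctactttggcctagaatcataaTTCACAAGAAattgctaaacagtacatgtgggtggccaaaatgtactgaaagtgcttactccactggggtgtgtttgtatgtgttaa

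F13a1 (ENSMUSG00000039109.15, GRCm38 chr13:36867178-37050244, minus strand) stood higher in Irg1-/- cells than in WT cells in all 4 treatments, and in none of them did the cultures of the genotypes overlap. In unstimulated cells the 3 WT cultures gave 57.2, 32.0 and 35.1 CPM and the 3 Irg1-/- cultures 101.9, 59.2 and 120.4 CPM. The lowest Irg1-/- culture there was only 1.03 times the highest WT culture, so the gap between the genotypes was narrow. At LPS 3h the values were 52.1, 41.5 and 52.5 CPM in WT cells and 107, 138.6 and 125.9 CPM in Irg1-/- cells. At LPS 24h the WT cultures gave 29.9, 29.7 and 25.5 CPM, and the Irg1-/- cultures 121.7, 121.4 and 182 CPM. Here the separation was widest: the lowest Irg1-/- culture was 4.05 times the highest WT culture. After the repeated dose the WT cultures gave 36.7, 37.8 and 24.9 CPM and the Irg1-/- cultures 153.6, 121.8 and 118.8 CPM. These values rest on 246 to 4286 reads per library.

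The ratio of the mean levels, Irg1-/- to WT, was 2.27 in unstimulated cells, 2.54 at LPS 3h, 4.99 at LPS 24h and 3.97 in tolerized cells. On the log2 scale the fitted differences were 1.18 ± 0.30 (SE, n = 3 a group), 1.35 ± 0.30, 2.32 ± 0.31 and 1.99 ± 0.30. Ordered by this difference among genes with a mean of at least 10 reads in the higher genotype, F13a1 took place 307 of 11183 in unstimulated cells, 197 of 10248 at LPS 3h, 49 of 10930 at LPS 24h and 53 of 10634 in tolerized cells. Without the third WT culture the difference at LPS 24h was 2.29 ± 0.36. Within pools the log2 differences were 1.18 in pool 4 (Unstim.), 1.37 in pool 2 (LPS 3h), 2.24 in pool 1 (LPS 24h), and 1.72 in pool 1 and 2.02 in pool 2 (LPS 24h->LPS 3h), most of them from 1 WT library. With the pool as a term the difference was 1.18 in unstimulated cells and 1.03 at LPS 3h, and the part of the pool in it was not tested.

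Over the 8 groups, the means of F13a1 ran from 141.7 CPM in Irg1-/- LPS 24h through 131.4 (Irg1-/- LPS 24h->LPS 3h), 123.9 (Irg1-/- LPS 3h) and 93.8 CPM (Irg1-/- Unstim.) to 48.7 (WT LPS 3h), 41.4 (WT Unstim.), 33.1 (WT LPS 24h->LPS 3h) and 28.4 CPM (WT LPS 24h). Neighbours in that order overlapped in their cultures everywhere except at the step from the lowest Irg1-/- group to the highest WT group. LPS itself went with small differences: WT cells at LPS 24h stood 0.55 ± 0.30 below unstimulated WT cells on the log2 scale (log2 difference -0.55), and Irg1-/- cells at LPS 24h stood 0.59 ± 0.29 above unstimulated Irg1-/- cells, without overlap of cultures in either genotype.

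**Figure D1:**
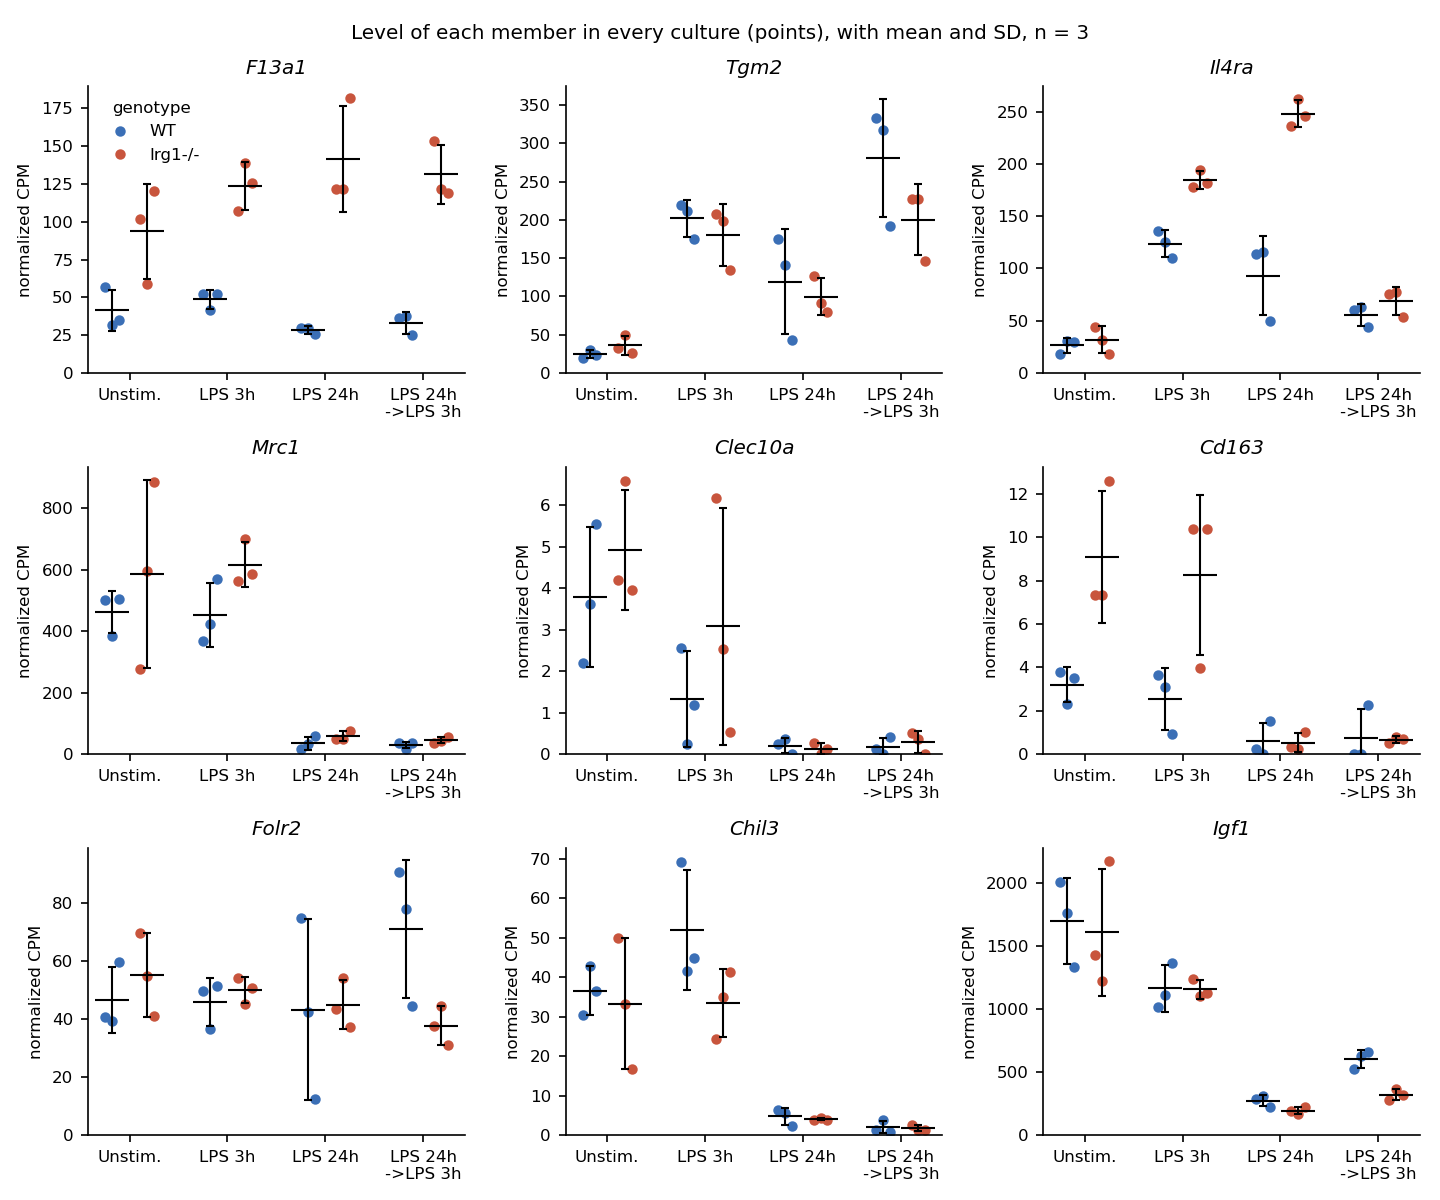
Normalized CPM (linear axes from 0, a scale for each gene) of F13a1 and the 8 other tested members in the 4 treatments; each point is 1 culture, the black line the mean and the bar the SD of 3 cultures, cut off at 0. F13a1 separates by genotype in every treatment and Il4ra at LPS 3h and LPS 24h. Cd163, Chil3, Igf1, Mrc1 and Folr2 also lie apart by genotype in some treatments. Mrc1, Chil3 and Igf1 separate by exposure to LPS for 24 h in both genotypes.

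To ask whether the other markers moved with F13a1 between genotypes, each was tested in the 4 treatments with edgeR's quasi-likelihood test, fitted to all 24 libraries and adjusted over 11878 genes (Benjamini-Hochberg, adjusted p under 0.05). Of the 32 tests on the 8 tested members, 1 passed: Il4ra was higher in Irg1-/- cells at LPS 24h. The counts were 0 of 8 in unstimulated cells, where 0.0421% of all genes passed, 0 of 8 at LPS 3h (0.00842% of all genes), 1 of 8 at LPS 24h (0.598%) and 0 of 8 in tolerized cells (0.118%). At an unadjusted p under 0.05 the number was 3 of 32 (9.38%), near the 7.25% over all genes in the same 4 comparisons. A DESeq2 Wald test passed 2, Il4ra at LPS 24h and Igf1 in tolerized cells. The share of all genes that DESeq2 passed is not given here, so these 2 calls have no background beside them. The cultures of the genotypes did not overlap for 1 of the 8 in unstimulated cells, as for 9.44% of all genes, 3 of 8 at LPS 3h (9.08%), 2 of 8 at LPS 24h (16.5%) and 3 of 8 in tolerized cells (12.9%).

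Tgm2, the tissue transglutaminase, is the member closest to F13a1 in enzymatic activity and passed between genotypes in no treatment. At LPS 24h the WT cultures gave 174.6, 141.2 and 42.5 CPM and the Irg1-/- cultures 127.1, 92.0 and 80.1 CPM. After the repeated dose they gave 333.3, 317.4 and 192.7 CPM in WT cells and 227.6, 227.5 and 146.7 CPM in Irg1-/- cells. In both treatments the 2 sets of cultures overlapped through the third WT culture alone: the other 2 WT cultures lay above all 3 Irg1-/- cultures. The log2 difference at LPS 24h was -0.26 ± 0.36 with that culture and -0.63 ± 0.32 without it (adjusted p = 0.735, edgeR). Within pools it was -0.02 at LPS 3h (pool 2), -0.81 at LPS 24h (pool 1), and -0.83 and -0.48 in tolerized cells (pools 1 and 2). Over the 4 treatments, with all cultures, the log2 difference lay between -0.49 and 0.56 with a standard error of at most 0.37 (adjusted p of at least 0.828, edgeR). Tgm2 overlaps Rprd1b on the other strand. Strand use in the counting is not given in the sources used here, so how reads from the shared stretch were counted is not known.

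Il4ra, the receptor chain shared by IL-4 and IL-13 signalling, had 113.8, 116.2 and 49.3 CPM in the WT cultures at LPS 24h and 236.5, 262.3 and 245.4 CPM in the Irg1-/- cultures. All 3 Irg1-/- cultures lay above all 3 WT cultures, and the third WT culture lay well below the other 2. The log2 difference was 1.41 ± 0.32 (2.66-fold, adjusted p = 0.0310, edgeR). Without the third WT culture it was 1.14, with an adjusted p of 0.258. Leaving out any 1 of the Irg1-/- cultures also ended the call (adjusted p = 0.0697, 0.140 and 0.124), as did the pool as a term (1.31, adjusted p = 0.130). Over all 15 alternatives the adjusted p ran from 0.000975 to 0.258. In pool 1, which held 1 WT and all 3 Irg1-/- libraries, the log2 difference was 1.12. At LPS 3h the cultures of the genotypes also lay apart, at 135.4, 125.5 and 110 CPM against 178.2, 194.2 and 181.3 CPM, with a log2 difference of 0.58 ± 0.32 that did not pass (adjusted p = 0.904). In unstimulated and tolerized cells the cultures overlapped, with log2 differences of 0.26 and 0.31. Within pools the difference was 0.51 at LPS 3h (pool 2), and 0.12 and 0.27 in tolerized cells (pools 1 and 2).

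The lectin and scavenger receptors did not pass in any treatment. Mrc1, the mannose receptor CD206, was at 15.1, 31.6 and 57.8 CPM in WT cells at LPS 24h and at 48.8, 48.1 and 76.4 CPM in Irg1-/- cells, a log2 difference of 0.73 ± 0.39 (adjusted p = 0.551). Its differences were positive in all 4 treatments, from 0.34 to 0.73, and the cultures lay apart in tolerized cells. At LPS 24h the overlap came from the third WT culture alone, and without it the log2 difference was 1.34 ± 0.42 (adjusted p = 0.340). Within pools the Mrc1 difference was 0.41 at LPS 3h (pool 2), 1.94 at LPS 24h (pool 1), and 0.48 and 1.14 in tolerized cells (pools 1 and 2). Cd163, the haemoglobin-haptoglobin scavenger receptor, was at 3.80, 2.29 and 3.51 CPM in unstimulated WT cells against 7.33, 7.35 and 12.6 CPM in Irg1-/- cells. The Irg1-/- cultures lay above the WT cultures there and at LPS 3h, with log2 differences of 1.50 ± 0.89 and 1.70 ± 0.92 from 7 to 235 reads per library, and neither passed (adjusted p = 1 and 0.900); in pool 2 at LPS 3h the Cd163 difference was 1.76. At LPS 24h, on 0 to 24 reads per library, the log2 difference of Cd163 was -0.13 ± 1.02 with all cultures, 2.28 ± 1.41 without the third WT culture and 1.10 in pool 1, so its direction rested on that culture. In tolerized cells the WT libraries of pools 1 and 2 had 0 reads of Cd163, the WT library of pool 4 had 28, and the Irg1-/- libraries had 7 to 11. The log2 difference of Cd163 there was -0.25 ± 0.99 with all cultures, which overlapped. Clec10a, a galactose-binding C-type lectin, had at most 114 reads in a library and log2 differences with standard errors of 0.97 or more, so a difference of 2-fold was not detectable at this depth. Folr2, the folate receptor of tissue macrophages, was at 90.6, 77.8 and 44.6 CPM in tolerized WT cells against 37.6, 44.4 and 31.1 CPM in Irg1-/- cells, a log2 difference of -0.91 ± 0.39 opposite in sign to that of F13a1 (adjusted p = 0.522). Within pools the Folr2 difference was -1.26 and -1.05 in tolerized cells (pools 1 and 2) and 0.57 at LPS 3h (pool 2). At LPS 24h it was 0.06 ± 0.39 with all cultures, -0.35 ± 0.33 without the third WT culture and -0.73 in pool 1.

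Among the secreted proteins, Igf1, insulin-like growth factor 1, was lower in every Irg1-/- culture than in every WT culture in both treatments that began with LPS for 24 h. In tolerized cells WT cultures gave 521.9, 625.6 and 656.9 CPM and Irg1-/- cultures 275, 364.7 and 319 CPM. The log2 difference was -0.91 ± 0.27 (adjusted p = 0.194, edgeR; 0.0198 by DESeq2), and within pools it was -0.61 in pool 1 and -1.19 in pool 2. At LPS 24h it was -0.50 ± 0.26 (adjusted p = 0.548), -0.59 ± 0.28 without the third WT culture and -0.58 in pool 1, and at LPS 3h it was 0.16 in pool 2. Chil3, the chitinase-like protein Ym1, overlapped between genotypes except at LPS 3h, where WT cultures at 69.3, 41.6 and 44.9 CPM stood just above Irg1-/- cultures at 24.2, 34.9 and 41.3 CPM (log2 difference -0.63 ± 0.42, adjusted p = 0.963; -0.78 in pool 2). At LPS 24h the Chil3 difference was -0.21 ± 0.44 with all cultures, -0.51 ± 0.46 without the third WT culture, when the genotypes no longer overlapped, and -0.65 in pool 1. In tolerized cells it was -0.01 in pool 1 and -0.57 in pool 2. Its close paralog Chil4 had 31 reads over all libraries. For Retnla, which encodes RELMα, 0 reads in a library allow a level of up to 0.127 to 0.565 CPM, the value of 3 reads at each depth, counting error only.

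**Figure D2:**
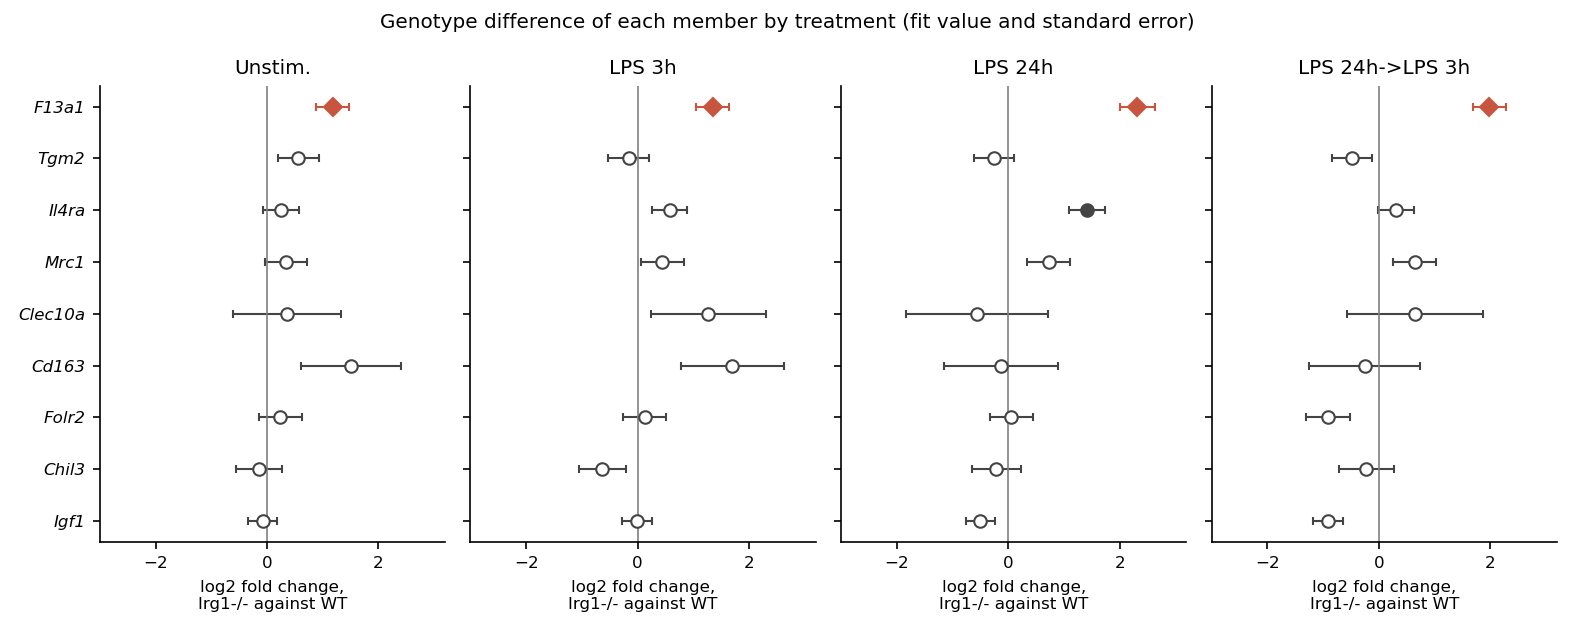
Log2 fold change between Irg1-/- and WT cells (x axis, with its standard error) for F13a1 (diamonds, no test) and the 8 other tested members (circles, filled where the adjusted p was under 0.05) in each treatment. F13a1 lies between 1.18 and 2.32 in the 4 panels, and the single filled circle is Il4ra at LPS 24h, at 1.41.

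Markers of other cell types were set beside the difference in F13a1, since platelets and megakaryocytes also make factor XIII-A. The 6 megakaryocyte and platelet markers summed to 117.1 to 154 CPM in unstimulated WT cells and to 371.5 to 499.4 CPM in unstimulated Irg1-/- cells, a separation in the direction of F13a1. Nearly all of that sum was Pf4, at 114.6 to 148.2 CPM against 368.5 to 495 CPM, whereas Itga2b, Gp9, Gp1bb and Gp6 stayed under 1 CPM in every unstimulated library. Ppbp was read in all 24 libraries, at 0.451 to 4.15 CPM in unstimulated WT cells and 2.81 to 3.96 CPM in Irg1-/- cells. Gp6, the platelet collagen receptor, was at 2.39 to 7.30 CPM in WT and 6.45 to 7.39 CPM in Irg1-/- cells at LPS 24h, and at 6.24 to 15.9 and 7.59 to 10.1 CPM in tolerized cells, with overlap in both. At LPS 24h, where F13a1 differed most, the sums overlapped (185.6 to 649.7 CPM in WT cells, 194.2 to 357.4 CPM in Irg1-/- cells). They overlapped at LPS 3h (260.6 to 397.9 and 335.6 to 497.3 CPM) and in tolerized cells as well (297.6 to 644.9 and 267.6 to 361.5 CPM). The 6 dendritic cell markers summed at LPS 3h to 1.64 to 3.18 CPM in WT cells and 5.88 to 8.03 CPM in Irg1-/- cells. Cd209a was at 0 in every library. The dendritic sums overlapped in unstimulated cells, at 2.32 to 5.85 CPM in WT and 5.77 to 11.1 CPM in Irg1-/- cells. They overlapped at LPS 24h (0.573 to 1.25 and 0.561 to 0.811 CPM) and in tolerized cells (0 to 2.73 and 0 to 0.363 CPM) as well. The marker sums of B cells, T cells, mast cells and basophils, and erythroid cells were at most 1.70 CPM in any library, and that of eosinophils at most 8.20 CPM. The part of these cells in the levels of F13a1 or Clec10a was not tested, and in bulk RNA fewer cells of a type cannot be told from less RNA per cell.

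LPS was the larger axis for the other markers: 29 of 64 treatment tests on the 8 tested members passed, 38 (59.4%) at an unadjusted p under 0.05, against 30.8% over all genes. The comparisons with unstimulated cells share their control cultures, as do those with LPS 24h and LPS 3h, so they are not independent of each other. After LPS 3h 2 of the 8 members rose in WT cells, Il4ra and Tgm2, and 0 fell, where 15.8% of all genes rose and 16.3% fell. The same 2 members rose in Irg1-/- cells and 0 fell, against 17.0% and 18.9% of all genes. Il4ra went from 18.4, 30.9 and 29.8 CPM in unstimulated WT cells to the values above (log2 change 2.23 ± 0.33, adjusted p = 2.83e-06) and by 2.55 ± 0.34 in Irg1-/- cells (adjusted p = 3.59e-07). Tgm2 went from 19.3, 30.2 and 23.9 CPM to 219.6, 211.5 and 175 CPM in WT cells (log2 change 3.05 ± 0.39, adjusted p = 2.20e-07). In Irg1-/- cells it went from 32.1, 50.1 and 26.5 CPM to 208.3, 198.7 and 134.2 CPM (2.32 ± 0.38, adjusted p = 1.31e-05). No other tested member passed at that time in either genotype. Igf1 was at 1011, 1109 and 1367 CPM in WT cells against 2004, 1761 and 1332 CPM without LPS, a log2 change of -0.55 ± 0.26 (adjusted p = 0.114), and changed by -0.48 ± 0.26 in Irg1-/- cells (adjusted p = 0.163). Clec10a in WT cells was at 2.55, 0.237 and 1.19 CPM against 2.19, 3.63 and 5.56 CPM (-1.55 ± 1.03, adjusted p = 0.268). Mrc1 was at 368, 423.3 and 570 CPM in WT cells against 502.8, 384.6 and 503.4 CPM without LPS.

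After LPS 24h 2 of the 8 members were higher and 4 lower in WT cells, where 9.25% and 6.98% of all genes were, and 2 higher and 5 lower in Irg1-/- cells, where 7.31% and 6.38% were. The median log2 change of the 8 members was -2.52 in WT cells and -3.05 in Irg1-/- cells, against 0.00 in both for all genes. Mrc1 fell from the values above to 15.1, 31.6 and 57.8 CPM in WT cells (log2 change -3.73 ± 0.43, adjusted p = 5.89e-08), and in Irg1-/- cells from 276.3, 595.5 and 886 CPM to 48.8, 48.1 and 76.4 CPM (-3.34 ± 0.42, adjusted p = 4.16e-07). Chil3 fell from 30.5, 42.9 and 36.4 CPM to 6.33, 5.45 and 2.29 CPM in WT cells (-2.97 ± 0.46, adjusted p = 1.07e-05) and by a similar amount in Irg1-/- cells (-3.04 ± 0.46). Igf1 fell from 2004, 1761 and 1332 CPM to 287.7, 307.5 and 222.4 CPM in WT cells (-2.64 ± 0.28, adjusted p = 1.31e-08) and by more in Irg1-/- cells (-3.06 ± 0.28, adjusted p = 1.60e-09), a difference between genotypes that did not pass. Clec10a went from 34 to 114 reads to 0 to 4 reads in WT cells (-4.17 ± 1.19, adjusted p = 0.0132) and from 27 to 74 reads to 0 to 4 reads in Irg1-/- cells (-5.09 ± 1.21, adjusted p = 0.00308); the WT call was lost without the third WT culture of LPS 24h (adjusted p = 0.0588) or of Unstim. (0.0505).

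Cd163 fell in Irg1-/- cells from 7.33, 7.35 and 12.6 CPM to 0.338, 0.210 and 1.02 CPM (-4.04 ± 1.01, adjusted p = 0.00477), while in WT cells, which started lower, the change of -2.41 ± 0.99 did not pass (adjusted p = 0.101); the difference between these changes was tested and did not pass (adjusted p = 0.876). Il4ra and Tgm2 stayed higher than without LPS: Il4ra by 1.82 ± 0.33 in WT cells (adjusted p = 0.000103) and 2.98 ± 0.34 in Irg1-/- cells (adjusted p = 8.79e-08), Tgm2 by 2.29 ± 0.38 (adjusted p = 3.46e-05) and 1.47 ± 0.37 (adjusted p = 0.00575). Of the WT LPS 24h cultures, the third alone shared pool 4 with the Unstim. libraries. Within that pool the WT log2 changes were smaller, at 0.9015 for Il4ra and 0.796 for Tgm2. The WT fall within it was larger for Chil3 (-3.996) and Igf1 (-2.934) and smaller for Mrc1. The part of the pool or of that culture in these sizes was not tested. With the pool as a term, the changes of Tgm2 and Cd163 in Irg1-/- cells were 0.53 and -1.72 and did not pass. Folr2 passed in none of the 8 treatment comparisons; at LPS 24h WT cultures spread from 12.4 to 74.8 CPM and Irg1-/- cultures from 37.2 to 54.1 CPM.

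Marker sums of other cell types moved with these falls. The 8 neutrophil markers summed to 416.1 to 726.9 CPM over the Unstim. and LPS 3h libraries of both genotypes and to 65.5 to 231.2 CPM over the libraries that had LPS for 24 h. The 6 stromal markers summed to 263.5 to 434.1 CPM and to 103.3 to 245.7 CPM in the same sets. Marrow neutrophils also make Chil3 and stromal cells make Igf1, and the part of such cells in these falls was not tested.

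Cells given the repeated dose were set against LPS 24h and against LPS 3h. Against LPS 24h, 1 of the 8 was higher and 0 lower in tolerized WT cells (2.46% and 1.53% of all genes), and 0 were higher and 1 lower in tolerized Irg1-/- cells (3.44% and 1.70%). Igf1 was the one in WT cells, at 521.9, 625.6 and 656.9 CPM against 287.7, 307.5 and 222.4 CPM (log2 change 1.14 ± 0.27, adjusted p = 0.00991); without the third WT culture at LPS 24h the adjusted p was 0.0508. Il4ra was the one in Irg1-/- cells, falling to 75.9, 77.2 and 53.8 CPM (log2 change -1.85 ± 0.33, adjusted p = 0.000317), and these overlapped the tolerized WT cultures at 60.2, 63.2 and 43.8 CPM. Tgm2 rose without overlap of cultures by 1.235 ± 0.37 in WT cells (adjusted p = 0.0504, edgeR) and 1.01 ± 0.36 in Irg1-/- cells (adjusted p = 0.1215), and did not pass. In Irg1-/- cells Chil3 (-1.24 ± 0.47) and Igf1 (0.73 ± 0.26) also lay apart and did not pass.

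Against LPS 3h, the comparison of tolerized with non-tolerized cells after the same last dose, 0 of the 8 were higher and 4 lower in WT cells (12.4% and 13.1% of all genes), and 0 higher and 6 lower in Irg1-/- cells (13.1% and 14.1%). Mrc1 was lower by log2 changes of -3.95 ± 0.43 in WT and -3.75 ± 0.43 in Irg1-/- cells, and Chil3 by -4.71 ± 0.50 and -4.29 ± 0.49. Igf1 was lower by -0.95 ± 0.27 and -1.85 ± 0.27, and Il4ra by -1.15 ± 0.32 and -1.42 ± 0.32. Clec10a (-3.37 ± 1.12, adjusted p = 0.0239) and Cd163 (-3.62 ± 1.00, adjusted p = 0.00703) passed in Irg1-/- cells and not in WT cells (-2.75 ± 1.20 and -1.66 ± 0.97); whether these changes differed between genotypes was not tested. The call of Clec10a was lost without tolerized Irg1-/- culture 2 or 3 (adjusted p = 0.0623 and 0.0939, edgeR) and without the first Irg1-/- culture of LPS 3h (0.158). In Irg1-/- cells only pool 2 held both treatments, with 1 library of each. Log2 changes within it were -3.91 for Mrc1, -3.24 for Chil3, -2.17 for Igf1 and -1.23 for Il4ra. For Clec10a and Cd163 they were -3.60 and -4.35. The part of the pool in the Irg1-/- changes was not tested. Tgm2 was at 192.7 to 333.3 CPM in tolerized and 175 to 219.6 CPM in non-tolerized WT cells and did not pass (0.48 ± 0.36). F13a1 stood at 24.9 to 37.8 CPM in tolerized and 41.5 to 52.5 CPM in non-tolerized WT cells, and at 118.8 to 153.6 and 107 to 138.6 CPM in Irg1-/- cells.

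**Figure D3:**
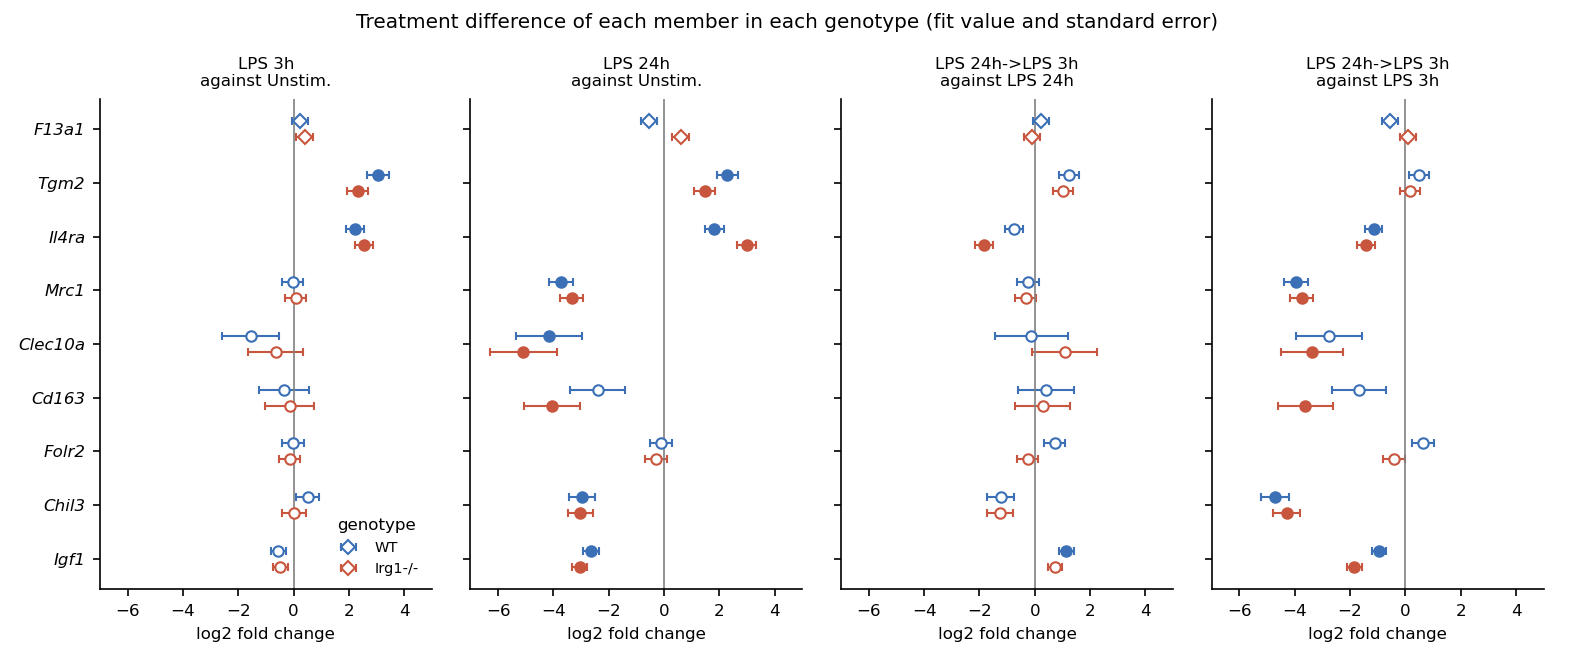
Log2 fold change (x axis, with its standard error) of F13a1 (diamonds, no test) and the 8 other tested members (circles, filled where the adjusted p was under 0.05) in 4 treatment comparisons, WT in blue and Irg1-/- in red. F13a1 stays between -0.56 and 0.59 in every comparison, whereas Mrc1 and Chil3 lie at -2.97 or lower in the LPS 24h panel and lower still against LPS 3h.

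A test of whether the response to treatment differed between genotypes passed for 0 of the 8 members in each of 3 comparisons: LPS 3h against Unstim. (0.00842% of all genes passed), LPS 24h against Unstim. (0.210%) and LPS 24h->LPS 3h against LPS 24h (0.00842%). At an unadjusted p under 0.05 the number was 2 of 24 (8.33%), near the 7.5% over all genes, both Il4ra: its rise by LPS 24h was larger in Irg1-/- cells by 1.16 ± 0.45 on the log2 scale (adjusted p = 0.444), and its change on the repeated dose was more negative by -1.11 ± 0.45 (adjusted p = 0.465).

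Over the 24 libraries, the log2 level of F13a1 had a Pearson r between -0.13 (Igf1) and 0.38 (Il4ra) with those of the 8 other tested members. When the mean of each treatment was removed, so that mainly genotype and culture remained, r was 0.64 with Il4ra, 0.53 with Mrc1, 0.36 with Cd163, -0.55 with Igf1 and between -0.14 and 0.12 with Chil3, Tgm2, Clec10a and Folr2. When the mean of each group was removed, so that cultures alone remained, r was 0.45 with Igf1, opposite in sign to its value with the treatment means removed, and between -0.21 (Cd163) and 0.17 (Chil3) with the 7 others, with -0.09 for Il4ra and -0.01 for Mrc1. The libraries share pools and cultures of one procedure, and these values are a description. The 5 genes of 10779 compared whose log2 level over the 24 libraries was most like that of F13a1 were Csf3r (r = 0.75), Dlg1 (0.68), Mtus2 (0.67), Stat4 (0.64) and Rsu1 (0.63). With the treatment means removed they were Plod1 (0.86), Csf3r (0.79), Ccr2 (0.78), Stard7 (0.78) and Slc39a10 (0.77). Csf3r encodes the receptor for G-CSF, Ccr2 the chemokine receptor of classical monocytes and Plod1 a lysyl hydroxylase of collagen. Csf3r was at 61.9 ± 22.0 CPM (SD, n = 3) in WT and 114.6 ± 7.19 CPM in Irg1-/- cells at LPS 24h, but at 58.9 ± 10.9 and 59.4 ± 17.0 CPM in unstimulated cells, where F13a1 already lay apart. None of the members was among these genes.

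**Figure D4:**
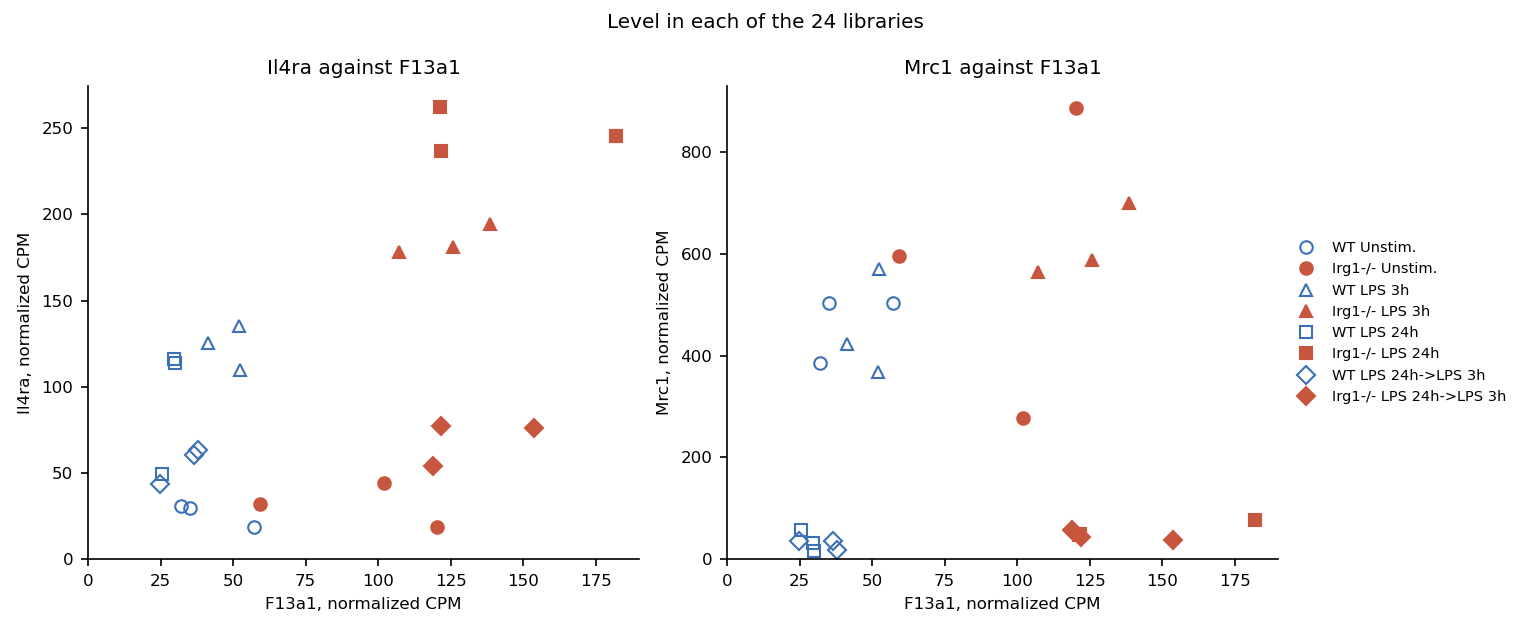
Normalized CPM of Il4ra and of Mrc1 (y axes) against that of F13a1 (x axis) in each of the 24 libraries, WT open blue and Irg1-/- filled red, with a marker shape for each treatment. F13a1 sorts the points by genotype, at most 57.2 CPM in WT and at least 59.2 CPM in Irg1-/- cells, while the height of the points follows the treatment for Mrc1, and the treatment and the genotype for Il4ra.

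In all, 4 lists of related genes, none of them members, were read in the same fit: 31 genes of the IL-4 and IL-13 pathway, 20 of resident macrophages, 15 of classical monocytes and 25 clotting factors, fibrinolysis genes and transglutaminases. Of their 76 tested genes, 0 passed between genotypes in any of the 4 treatments, in 304 tests by edgeR. At an unadjusted p under 0.05 the number was 44 of the 304, a larger share than the 7.25% of tests over all genes. The lists were chosen with earlier results of these data known, and each of the 76 genes enters 4 times. That share is therefore a description only. DESeq2 passed 8, for which the share over all genes is not given here. They included Cebpb, Plau, Plaur and F3, lower in Irg1-/- cells at LPS 24h, and Selenop and Pltp, higher there. The median log2 difference at LPS 24h was -0.43 for the IL-4 and IL-13 pathway, -0.52 for the clotting list, 0.11 for the resident and 0.15 for the monocyte list, against -0.01 for all genes. F13a1 thus lay 2.32 above WT at that time on the log2 scale while the median of the 17 tested genes of the clotting list was below 0.

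Of the other transglutaminase and factor XIII genes in the clotting list, Tgm1 was tested, and Tgm3 to Tgm7 and F13b, which encodes the B subunit of factor XIII, had at most 4 reads each over all libraries and were not. In Irg1-/- cells Tgm1 fell from 3.56 ± 4.43 to 0.0343 CPM at LPS 3h (adjusted p = 0.00102) and stood at 1.59 ± 0.98 CPM in tolerized cells, above LPS 3h (adjusted p = 0.00904). In the clotting list 13 of 17 tested genes passed after LPS 3h in WT cells, 11 of them upward, where 15.8% of all genes rose and 16.3% fell, and 11 passed in Irg1-/- cells, 9 of them upward (17.0% and 18.9%). F3, tissue factor, rose from 0.0377 to 25.9 ± 12.0 CPM in WT cells (adjusted p = 2.33e-08), and Thbd, the anticoagulant receptor thrombomodulin, fell from 8.85 ± 0.84 to 0.599 ± 0.284 CPM (adjusted p = 0.000265). At LPS 24h 9 passed in WT cells, 7 of them upward, where 9.25% of all genes rose and 6.98% fell, and 8 passed in Irg1-/- cells, 4 of them upward (7.31% and 6.38%). Among the genes that rose was Procr, the endothelial protein C receptor, higher in both by log2 changes of 3.92 ± 0.44 and 4.06 ± 0.45.

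In the IL-4 and IL-13 pathway list 16 of 26 tested genes passed after LPS 3h in WT cells and 15 in Irg1-/- cells, all but 1 of them upward (15.8% and 17.0% of all genes rose), with median log2 changes of 1.83 and 1.18 against -0.18 and -0.20 for all genes. The one lower gene in both genotypes was Pparg, a nuclear receptor of the alternative program, at 8.50 ± 2.69 CPM against 54.3 ± 19.7 CPM in WT cells (adjusted p = 4.26e-06). Socs1, an inhibitor of JAK signalling, rose in both, in WT cells from 0.275 ± 0.240 to 205.7 ± 29.8 CPM (adjusted p = 9.48e-15). At LPS 24h 9 rose and 6 fell in WT cells, where 9.25% and 6.98% of all genes did, and 5 rose and 5 fell in Irg1-/- cells (7.31% and 6.38%). Arg1, arginase 1, was the gene with the largest rise, to 2347 ± 260 CPM in WT and 2803 ± 64.1 CPM in Irg1-/- cells from 0.862 ± 0.589 and 2.92 ± 2.09 CPM. Arg1 thus rose at LPS 24h while Mrc1, Chil3 and Igf1 fell in the same cultures.

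Of the 18 tested resident macrophage genes, 2 were higher and 8 lower at LPS 24h in each genotype, where 9.25% of all genes were higher and 6.98% lower in WT cells and 7.31% and 6.38% in Irg1-/- cells. Slco2b1, an organic anion transporter, fell from 32.1 ± 14.9 to 0.189 ± 0.254 CPM in WT cells (adjusted p = 1.74e-07), and Marco, a scavenger receptor, rose from 0.475 ± 0.417 to 121.5 ± 44.7 CPM (adjusted p = 3.97e-11). Of the 15 classical monocyte genes, 6 rose and 1 fell at LPS 24h in WT cells, with 5 and 1 in Irg1-/- cells, beside the same shares of all genes. Ccr2, named above for its likeness to F13a1, was at 33.3 ± 12.98 CPM in WT and 71.4 ± 22.7 CPM in Irg1-/- unstimulated cells, and at 26.5 ± 8.70 and 48.7 ± 5.89 CPM at LPS 24h, and passed between genotypes in neither.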

How the data were processed

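RNA of 24 BMDM cultures was captured with oligo-dT, barcoded, pooled and amplified over 12 cycles as a 3'-end digital gene expression library without molecular identifiers. The deposited table holds whole-number read counts per Ensembl gene, not normalized by the authors, for mm10 and with STAR per the labels; the counting program, annotation and strand setting are not given in the sources used here. The 5 summary lines that name no gene, 40.6 to 52% of each column, were left out.

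Symbols and coordinates came from GENCODE M21 (GRCm38), which named 21822 of 22165 genes. Counts were normalized by TMM, filtered with filterByExpr and tested with edgeR 4.0.16 in R 4.3.3 (glmQLFit and glmQLFTest, 8 groups, all 24 libraries, 11878 genes, Benjamini-Hochberg, threshold 0.05). Level is CPM over the normalized library size; SE is the absolute log2 fold change over the square root of F. The tests were checked on simulated data. DESeq2 1.42.0 served as an alternative, with 8 others and each culture left out in turn. Replicates of a group differed by more than sampling noise in all 24 pairs.

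The members and gene lists were chosen with earlier results of these data known. Besides the members, the text names up to 2 genes per direction, list and comparison, from those past the threshold without overlap and with a mean of 10 or more reads, and the 5 genes most like F13a1 by either measure; Pf4, Chil4, Ccr2 and the genes passed by DESeq2 alone were named after their values were seen. The p-values measure the spread between cultures. Read numbers limit precision by counting error only, and PCR copies are counted as reads.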

Additional observations from a re-analysis of the deposited data

Results flagged for a closer look

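F13a1 after LPS 24h was the one member whose cultures moved in opposite directions in the genotypes without overlap. The WT cultures at LPS 24h (25.5 to 29.9 CPM) all lay below the unstimulated WT cultures (32.0 to 57.2 CPM), and the Irg1-/- cultures at LPS 24h (121.4 to 182 CPM) all lay above the unstimulated Irg1-/- cultures (59.2 to 120.4 CPM). The difference between these changes was 1.14 ± 0.42 on the log2 scale. It was not tested, because F13a1 was selected on measured values of these libraries. The unstimulated libraries were all in pool 4 and those of Irg1-/- LPS 24h all in pool 1, so pool and treatment cannot be told apart in the Irg1-/- cells; within pool 4 the WT change was -0.70.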

How the results depend on the processing

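The difference of F13a1 between genotypes kept its direction under every alternative and within every pool run; it moved by more than the spread between cultures only at LPS 3h, to 1.03 with the pool as a term and to 1.14 with the replicate block nested in genotype, from 1.35. For the other members, 1 of 32 genotype tests passed in the report, 2 with the DESeq2 Wald test, and 0 with the compared groups alone, with the pool as a term or with the nested replicate block; with 1 culture left out the number ran from 0 to 1, and it was 0 without any 1 of the Irg1-/- LPS 24h cultures or the third WT one. The cause was not tested. For the 4 lists, the number of genotype tests passed was 0 in the report, 8 with DESeq2, 15 with no filter on low counts and 2 with the replicate block (Cebpb and Pltp, at LPS 24h); it ran from 0 to 4 with 1 culture left out, reaching 4 without the first WT LPS 24h culture (Cebpb, Pltp, F3 and Plau) and 1 without the third WT LPS 24h->LPS 3h culture (S100a10), and the cause was not tested. The shares of all genes that passed under these alternatives are not given here. Of the 30 member calls, 23 held under every alternative run, 7 were lost under at least 1, and 0 of 449 values reversed. Calls lost and not named in the report were Clec10a with the pool as a term (adjusted p = 0.0791 in WT and 0.0557 in Irg1-/- cells, LPS 24h against Unstim.), Igf1 on the repeated dose in WT cells with the compared groups alone (0.164), and Il4ra with the nested block (0.188) and with the compared groups alone (0.238).

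Deviations of cultures with the same number had correlations from -0.10 to 0.34 over the 12 comparisons, not all above 0.1 in any. Between genotypes at LPS 24h they ran from 0.0535 to 0.287, against -0.298 to 0.195 for cultures with other numbers. For LPS 3h against Unstim. in WT cells they ran from -0.102 to -0.0499, against 0.000394 to 0.0809. The main fit did not pair the cultures, and whether the numbers mark pairs was not settled by these values. In every WT group given LPS, culture 1 was in pool 1, culture 2 in pool 2 and culture 3 in pool 4. Number and pool thus coincided in the WT comparisons between LPS treatments. They did not in the comparisons with Unstim., nor over the Irg1-/- groups. The replicate block gave 1 genotype call among the members, 32 treatment calls against 29 without it, and 0 differences between genotypes in response. DESeq2 size factors moved the median of all genes by over 0.1 for tolerized against non-tolerized Irg1-/- cells alone, from 0.12 to 0.01 on the log2 scale. Low counts of Clec10a and Cd163 limit what could be seen of them.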
